A study of Mus musculus with 2 samples.

Results

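The Mir99, Mir100 and Mir125 genes of the mouse form 3 paralogous microRNA clusters, and 6 genes make up the group described here: Mir99a, Mir99b, Mir100, Mir125a, Mir125b-1 and Mir125b-2. They were taken by gene name in the GENCODE M21 annotation from 2202 counted miRNA genes. The samples were 2 hearts of female B6CASTF1/J mice aged 10 days (replicates 1 and 2), with 1 microRNA-seq library each. B6CASTF1/J is the F1 hybrid of the inbred strains C57BL/6J and CAST/EiJ, and both hearts carried no stated treatment. The labels give each heart its own biosample and biological replicate number but the same donor identifier. They name no contrast, so each gene is described by its level in both hearts, and the hearts are set against each other as replicate 1 over replicate 2, with no test across animals. A whole heart holds muscle, vessel, mesenchymal and blood cells, and fewer cells of a type cannot be told apart from less RNA per cell.

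A miRNA is cut from a hairpin precursor as a short RNA that guides silencing complexes to messenger RNAs, mainly through its seed, bases 2 to 8 from the 5′ end. The miR-99/100 family is among the oldest miRNA families of animals and is known in mammals for repressing growth signalling through Mtor and Igf1r. In the zebrafish heart, miR-99/100 and let-7 are known as miRNAs that fall when cardiomyocytes dedifferentiate during regeneration. The miR-125 family is orthologous to lin-4, a miRNA of developmental timing in the nematode Caenorhabditis elegans, and in mammals both miR-125 and let-7 are known to repress Lin28. Genes of the miR-99/100, let-7 and miR-125 families stand side by side in insects as well as in mammals.

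The mature 5′ arms are shown because they separate the 6 genes into 2 seed groups and because they decide which reads can be assigned to a single gene. Sequences are from RefSeq (GRCm38.p6), which held both arms of all 6 genes, and capitals mark the seed. The miR-99/100 family shares the seed ACCCGUA:
miR-99a-5p: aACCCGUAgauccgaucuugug
miR-100-5p: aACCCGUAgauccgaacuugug
miR-99b-5p: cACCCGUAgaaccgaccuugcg
The miR-125 family shares the seed CCCUGAG, and Mir125b-1 and Mir125b-2 give the same 5′ arm:
miR-125b-5p: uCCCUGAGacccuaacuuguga
miR-125a-5p: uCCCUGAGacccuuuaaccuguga
Counted from 1 at the 5′ end of miR-99a-5p, miR-100-5p differs from it at 1 position (U16A) and miR-99b-5p at 4 (A1C, U11A, U16C and U21C). The 5′ arms of miR-125b (22 nt) and miR-125a (24 nt) share their first 13 and last 5 bases. The seed ACCCGUA belonged to no other of the 1738 mature entries in the table, while CCCUGAG was also held by miR-351-5p, miR-6367 and miR-6394.

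The 3′ arms are shown because they are the arms that differ between the Mir125b copies. They have less in common, and here the seed in capitals is shared only by miR-99a-3p and miR-99b-3p:
miR-99a-3p: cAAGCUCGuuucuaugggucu
miR-99b-3p: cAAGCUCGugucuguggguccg
miR-100-3p: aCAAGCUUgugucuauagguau
miR-125a-3p: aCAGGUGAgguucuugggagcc
miR-125b-1-3p: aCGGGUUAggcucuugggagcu
miR-125b-2-3p: aCAAGUCAgguucuugggaccu
The count tables give 1 value per gene, so reads of the 5′ and 3′ arms of a hairpin were not separated.

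Among the 2202 counted hairpins, the 5′ arm of miR-125b occurred in 2 (Mir125b-1 and Mir125b-2), and every other mature arm of the 6 genes occurred in 1. The hairpins of Mir125b-1 and Mir125b-2 share an unbroken run of 24 nt, which holds the whole 22 nt arm. Reads of that arm that end inside the run match both genes equally well. The tables tally multimapping reads apart from the genes, so such reads count for neither gene, and the counts of Mir125b-1 and Mir125b-2 can understate their levels. The next longest runs were 16 nt between Mir99a and Mir100, 14 nt between Mir125a and either Mir125b gene, and 11 nt between Mir99b and Mir100, all shorter than a mature arm. Because miR-99a-5p and miR-100-5p differ at 1 base, a read with an error at that base could be counted for the wrong gene, and the share of such reads was not tested.

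All 3 clusters lie on the plus strand, and each runs in the order miR-99/100 gene, let-7 gene, miR-125 gene (mm10 coordinates). On chromosome 16, Mir99a (ENSMUSG00000065530.1) spans 77598936 to 77599000 and Mir125b-2 (ENSMUSG00000065472.1) 77646273 to 77646343, both in introns of the noncoding host gene Mir99ahg. Mir125b-2 also touches 4 nt of an exon of C130023A14Rik, a transcript still to be experimentally checked. On chromosome 17, Mir99b (ENSMUSG00000065396.1) spans 17830188 to 17830257 and Mir125a (ENSMUSG00000065479.2) 17830812 to 17830879, both inside Spaca6, a gene known for a sperm membrane protein. Mir99b is intronic there, while 47 of the 68 nt of the Mir125a hairpin overlap an annotated Spaca6 exon. On chromosome 9, Mir100 (ENSMUSG00000093011.1) spans 41531425 to 41531504 and Mir125b-1 (ENSMUSG00000093354.1) 41581926 to 41582002, both in introns of the noncoding gene 3110039I08Rik. The whole Mir100 hairpin lies opposite an exon of the minus-strand noncoding RNA Gm48742, and Mir125b-1 lies within an exon of the short sense-intronic transcript Gm28119.

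The clusters differ in their spacing. The chromosome 17 cluster fits into 692 nt, with 94 nt between Mir99b and Mirlet7e and 367 nt between Mirlet7e and Mir125a. The chromosome 16 cluster spans 47408 nt, with 656 nt between Mir99a and Mirlet7c-1 but 46522 nt between Mirlet7c-1 and Mir125b-2. The chromosome 9 cluster spans 50578 nt, with 5211 nt between Mir100 and Mirlet7a-2 and 45114 nt between Mirlet7a-2 and Mir125b-1.

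The libraries held 10782737 reads in replicate 1 and 10201509 in replicate 2, of which 4260561 and 4583025 were counted on named genes. Levels are given as CPM, counts scaled to a common total of counts on named genes, on the strand of the gene. A count of 0 is read against a fixed floor of 3 counts, or 0.704 CPM in replicate 1 and 0.655 CPM in replicate 2. The heart label was checked on miRNAs of cardiac muscle: Mir208a, Mir208b and Mir499 were all detected and summed to 9644 and 6536 CPM. Of 6 neuronal genes, Mir9-1, Mir9-2, Mir124a-1, Mir124a-2 and Mir124a-3 were at 0 in both hearts, but Mir9 and Mir124a have several copies whose shared reads count for no gene, so their zeros say nothing of the tissue. Intervals are exact 95% Clopper-Pearson intervals and cover counting error only, since PCR reads without molecular identifiers are not independent molecules.

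All 6 genes were detected (10 or more counts in both hearts), as were 346 of the 2202 genes. Together they took 6.98% of the counts in replicate 1 (6.95 to 7.00) and 7.52% in replicate 2 (7.49 to 7.54), or 7.25% ± 0.381 (SD, n = 2). Their strand was unambiguous: none had a read on the opposite strand, and all 6 had the same count with and without regard to strand. A read of these libraries (small inserts, per the labels) can cover a whole mature miRNA, so levels of different genes are compared as reads per gene, not per nucleotide of hairpin. Ratios between different sequences also hold any differences in ligation and amplification, which were not tested.

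Mir99a was the most abundant of the 6 genes. Replicate 1 held 191778 counts of it and replicate 2 held 147293, or 45012 and 32139 CPM (mean 38576 ± 9103 CPM, SD, n = 2), which ranked it 6 and 9 of all genes. It alone took 4.50% (4.48 to 4.52) and 3.21% (3.20 to 3.23) of the counts. For scale, the most abundant gene of the tables, Mir378a, stood at 152441 ± 2742 CPM.

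Mir99b, its paralog on chromosome 17, had 31672 counts in replicate 1 and 115908 in replicate 2. Its level was 7434 and 25291 CPM, or 16362 ± 12627 CPM, and its rank 24 and 11. Replicate 2 stood far above replicate 1, and the SD of Mir99b was the largest among the 6 genes.

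Mir100, on chromosome 9, had 27855 and 21436 counts, which are 6538 and 4677 CPM, or 5608 ± 1316 CPM. It ranked 27 and 33. As for Mir99a, replicate 1 was the higher heart.

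**Figure D1:**
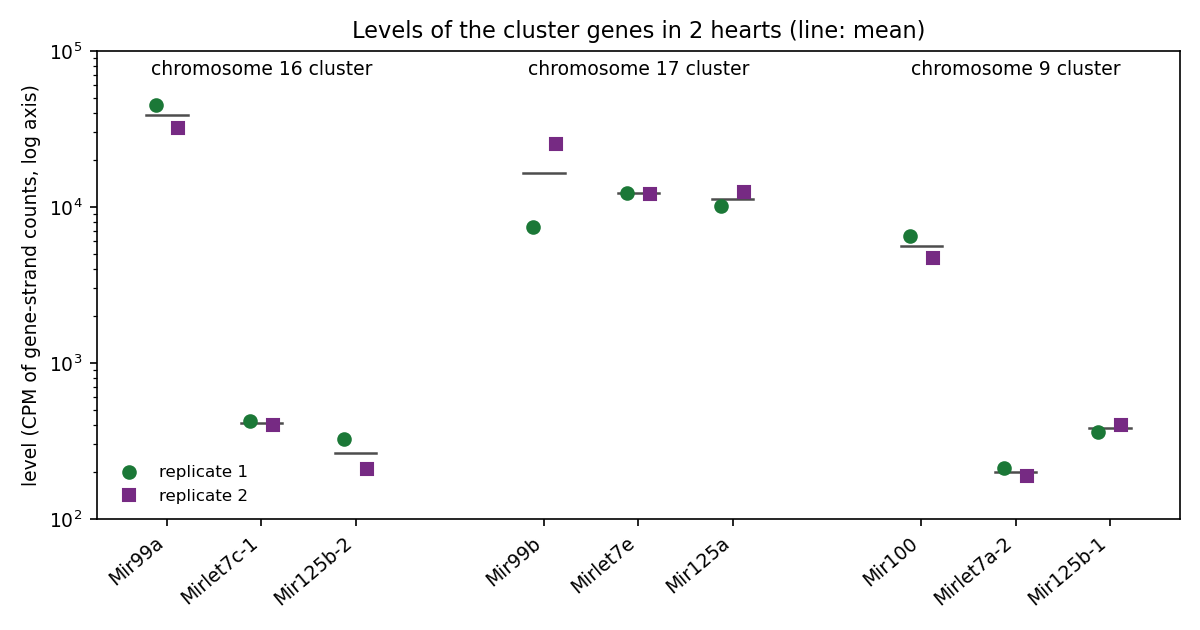
Level in CPM (log axis) of the 6 Mir99, Mir100 and Mir125 genes and their let-7 neighbours, by cluster, with replicate 1 as circles, replicate 2 as squares and the mean of both as a line. Mir99a (45012 and 32139 CPM) stands highest, Mir125b-1 and Mir125b-2 stay at or under 401 CPM, and Mir99b shows the widest gap between the hearts.

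Of the miR-125 family, Mir125a had the highest count, although reads that match both Mir125b genes are left out of theirs. Replicate 1 held 43023 counts of it and replicate 2 held 57005, or 10098 and 12438 CPM (mean 11268 ± 1655 CPM), which ranked it 20 and 17. Replicate 2 was the higher heart, as for Mir99b, by a smaller margin.

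The Mir125b genes were counted at low levels, from reads that could be placed at 1 position. Mir125b-1 had 1533 and 1839 counts, or 381 ± 29.3 CPM (359.8 and 401 CPM), and Mir125b-2 had 1375 and 954 counts, or 265 ± 81.0 CPM (323 and 208 CPM). Their ranks lay between 107 and 131. Whether their shared 5′ arm accounts for these low counts was not tested, because the reads placed at more than 1 position are not listed by sequence.

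In order of mean level, as counted from reads placed at 1 position, the genes ran Mir99a, Mir99b, Mir125a, Mir100, Mir125b-1 and Mir125b-2. The 2 values of Mir99b (7434 and 25291 CPM) enclosed those of Mir125a, so these neighbours did not differ beyond their spread. For the other 4 neighbouring pairs the lower value of the higher gene exceeded the higher value of the lower gene, the closest case being Mir125b-1 (359.8 CPM or more) against Mir125b-2 (323 CPM or less).

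The makeup of the miR-99/100 family differed between the hearts while its sum differed little. The 3 genes together took 5.90% (5.88 to 5.92) of the counts in replicate 1 and 6.21% (6.19 to 6.23) in replicate 2. Within that sum Mir99a held 76.3% in replicate 1 and 51.7% in replicate 2, Mir99b 12.6% and 40.7%, and Mir100 11.1% and 7.53%. The 3 genes share the seed ACCCGUA in their 5′ arms. The log2 ratio of their summed counts, which hold both arms, was -0.14 (replicate 1 over replicate 2, TMM-scaled, interval -0.15 to -0.13).

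Among reads placed at 1 position, which leave out those shared by the Mir125b copies, Mir125a made up most of the miR-125 family in both hearts. The 3 genes took 1.08% (1.07 to 1.09) and 1.30% (1.29 to 1.32) of the counts, and Mir125a held 93.7% and 95.3% of that, Mir125b-1 3.34% and 3.08%, and Mir125b-2 2.99% and 1.60%.

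The seed CCCUGAG is carried outside the 3 clusters by an X-linked gene, Mir351. From the first base on, its 5′ arm matches miR-125b-5p without a break for 8 bases:
miR-351-5p: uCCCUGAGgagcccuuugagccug
Mir351 had 29833 and 24015 counts, or 6121 ± 1246 CPM, which was above both Mir125b genes, as counted, in each heart. Mir351 held 39.4% of the summed counts of Mir351, Mir125a and both Mir125b genes in replicate 1 and 28.7% in replicate 2. The share of Mir125a was 56.8% and 68.0%. These counts hold both arms and leave out reads shared by the Mir125b copies, so they are not shares of the reads with that seed. The other genes with this seed, Mir6367 on chromosome 16 and Mir6394 on chromosome 7, had 0 counts in both hearts, which allows up to 0.704 CPM in replicate 1 and 0.655 CPM in replicate 2.

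**Figure D2:**
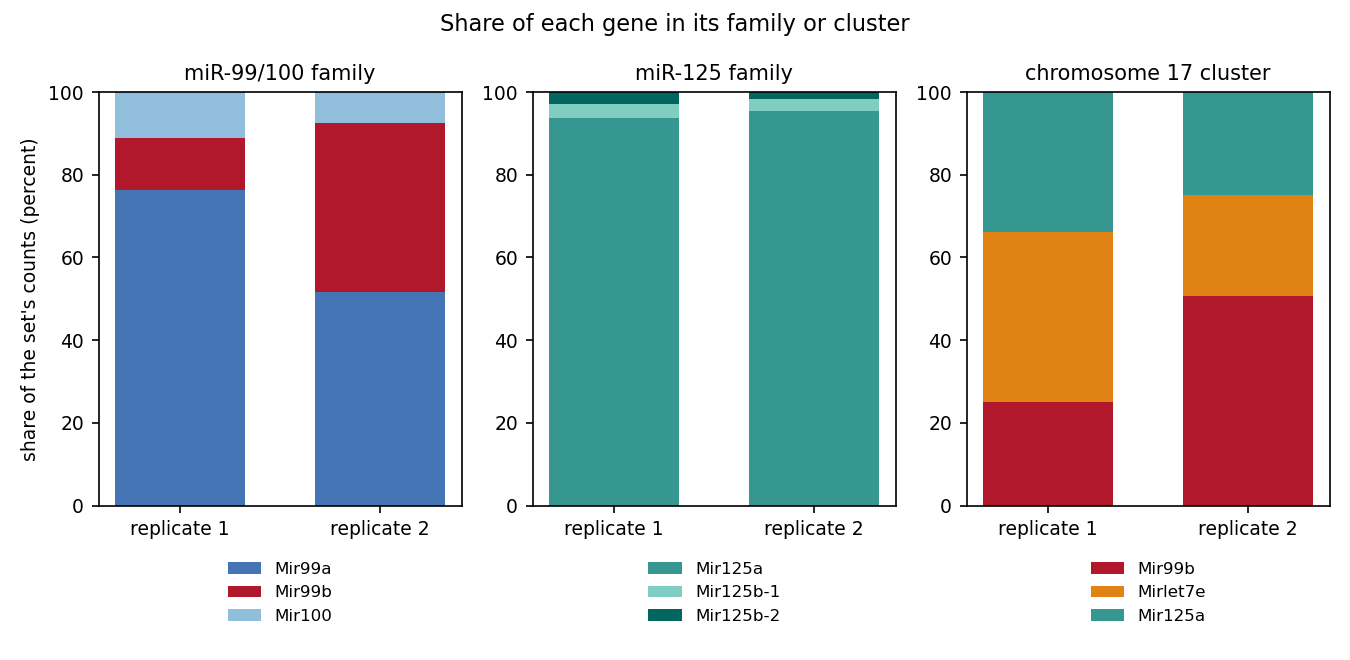
Share in percent of each gene in the counts of the miR-99/100 family, the miR-125 family and the chromosome 17 cluster, with replicate 1 left of replicate 2. Mir99b takes 12.6% of its family and 25.0% of its cluster in replicate 1, and 40.7% and 50.7% in replicate 2, while Mir125a holds 93.7% and 95.3% of its family.

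By cluster, the levels did not follow the order of the genes in the same way. On chromosome 16, the miR-99/100 gene dominated: Mir99a held 98.4% and 98.1% of the counts of its cluster, Mirlet7c-1 0.928% and 1.23%, and Mir125b-2 0.705% and 0.636%. On chromosome 9, Mir100 held 91.9% and 88.8%, Mirlet7a-2 2.99% and 3.55%, and Mir125b-1 5.06% and 7.62%. On chromosome 17 each of the 3 genes held 24.3% or more in both hearts: Mir99b held 25.0% and 50.7%, Mirlet7e 41.1% and 24.3%, and Mir125a 33.9% and 25.0%.

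The low partners in the long clusters are those with copies. Mirlet7c-1 and Mirlet7a-2 share runs of 23 nt with Mirlet7c-2 and Mirlet7a-1, and Mir125b-1 and Mir125b-2 the run of 24 nt with each other, whereas the 3 genes of chromosome 17 share no run over 17 nt with any counted hairpin. Mirlet7c-1 stood at 413 ± 16.2 CPM (425 and 402) and Mirlet7a-2 at 199.8 ± 18.5 CPM (213 and 187), against 12168 ± 70.6 CPM for Mirlet7e (12218 and 12118). The excess of Mir99a and Mir100 over these neighbours can therefore be overstated, and by how much was not tested. Mirlet7e has another limit: all 93 nt of its hairpin lie opposite an exon of the counted miRNA gene Gm25927. Without regard to strand Mirlet7e had 0 counts in both hearts, so its levels, ratios and shares rest on the gene-strand counts alone.

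**Figure D3:**
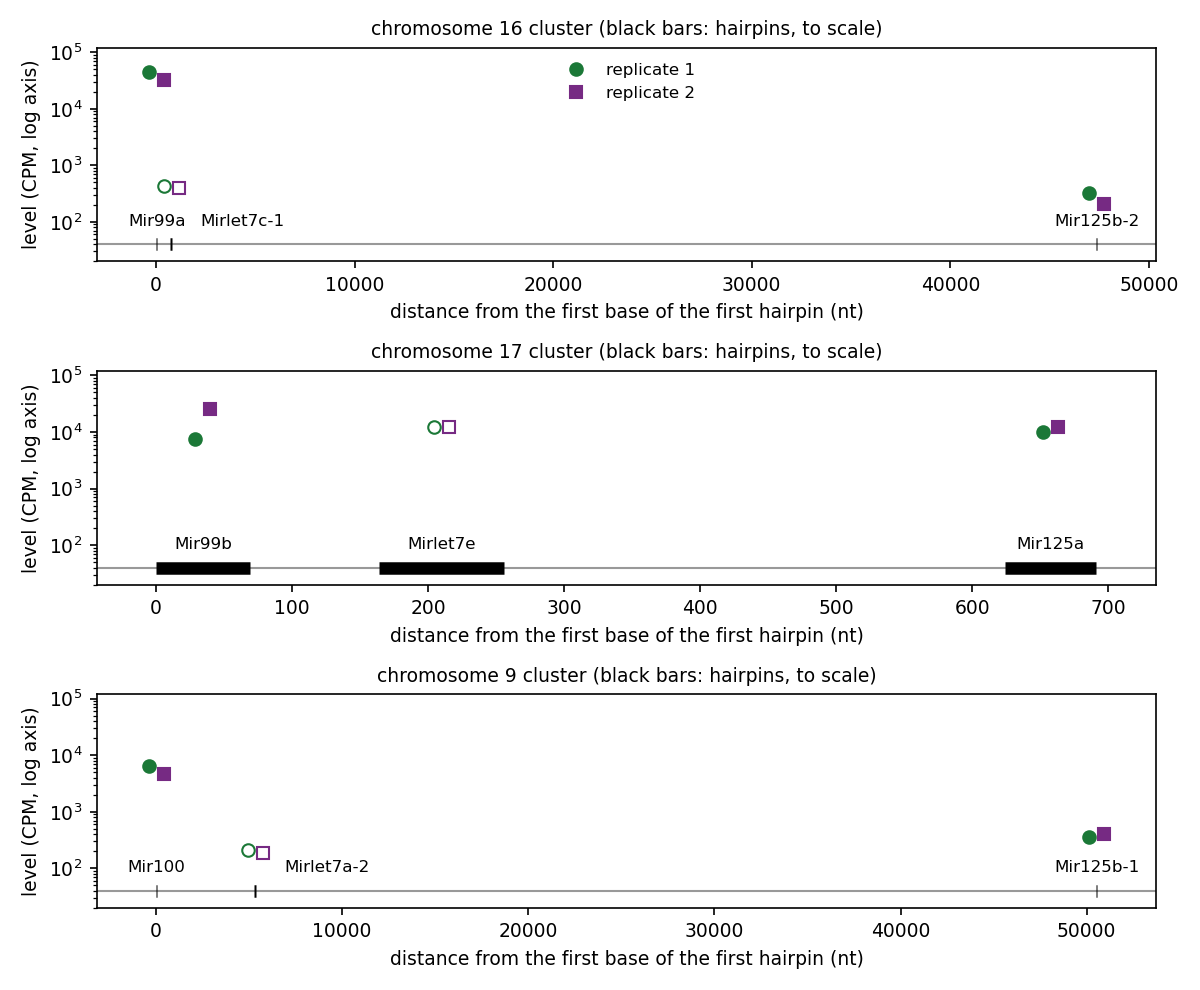
Position of the hairpins (black bars, distance in nt from the start of each cluster's first hairpin, drawn to scale with its own axis for each cluster) and level in CPM (log axis) in replicate 1 (circles) and replicate 2 (squares), shown just left and right of each hairpin, open for let-7 genes. The 3 genes of the 692 nt cluster on chromosome 17 lie between 7434 and 25291 CPM, while in the clusters of 47408 and 50578 nt the first gene stands far above the other 2.

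Within a library, the ratio of Mir99a to Mir100 was almost the same in both hearts. Mir99a exceeded Mir100 6.88-fold in replicate 1 (log2 ratio 2.78, interval 2.77 to 2.80) and 6.87-fold in replicate 2 (2.78, 2.76 to 2.80). Of the 15 pairs compared, this one differed least between the hearts. That restates their like ratios of replicate 1 over replicate 2 (log2 0.42 each), a value that Mir10a, in none of the pairs, also had (0.42). Mir99a and Mir100 lie on different chromosomes, and a link between them was not tested. The ratios that involve Mir99b moved: Mir99a exceeded Mir99b 6.06-fold in replicate 1 (2.60, 2.58 to 2.62) and 1.27-fold in replicate 2 (0.35, 0.33 to 0.36).

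The genes of the chromosome 17 cluster, which lie within 692 nt, did not keep a fixed ratio. The log2 ratio of Mir99b over Mir125a was -0.44 (-0.46 to -0.42) in replicate 1 and 1.02 (1.01 to 1.04) in replicate 2, so their order differed between the hearts. That of Mir99b over Mirlet7e was -0.72 (-0.74 to -0.70) and 1.06 (1.05 to 1.08). In contrast, Mir125a over Mirlet7e was -0.27 (-0.29 to -0.26) and 0.04 (0.02 to 0.05), a ratio near 1 in both hearts whose mean turned from -0.12 to 0.33 when counts were divided by hairpin length.

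Between the miR-125 genes, Mir125a exceeded Mir125b-1 28.1-fold in replicate 1 and 31.0-fold in replicate 2, and Mir125b-2 31.3-fold and 59.7-fold, both open to overstatement by the uncounted reads of miR-125b-5p. Mir125b-2 over Mir125b-1 had a log2 ratio of -0.16 (-0.26 to -0.05) and -0.95 (-1.06 to -0.83), so Mir125b-1 was counted higher in both hearts. Across their clusters, Mir99a exceeded Mir125b-2 139-fold and 154-fold, and Mir100 exceeded Mir125b-1 18.2-fold and 11.7-fold.

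**Figure D4:**
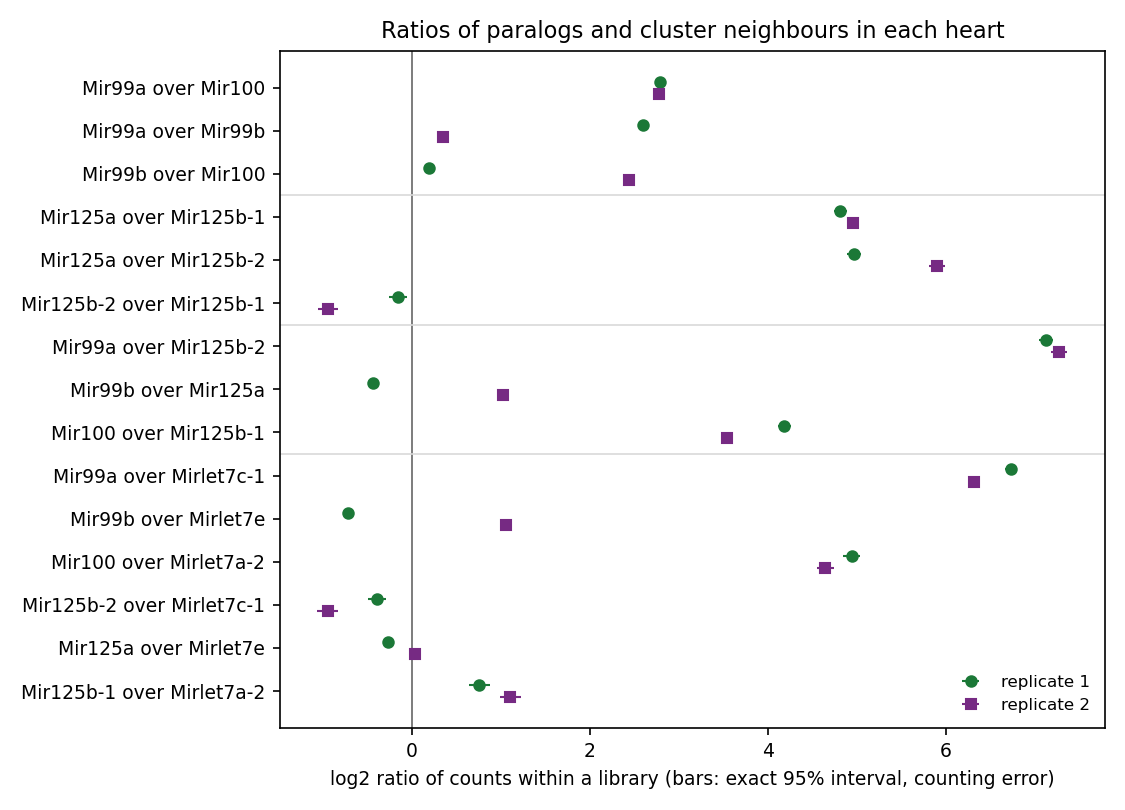
Log2 ratio of counts within a library for the 15 pairs of paralogs and cluster neighbours, with replicate 1 (circles) above replicate 2 (squares) and exact 95% intervals for counting error, many of them narrower than the symbols. Mir99a over Mir100 coincides at 2.78, while each ratio with Mir99b lies apart between the hearts.

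Between the hearts, Mir99b was 3.56-fold lower in replicate 1 than in replicate 2, with a TMM-scaled log2 ratio of -1.83 (replicate 1 over replicate 2, interval -1.85 to -1.81). It was the only one of the 6 genes that differed 1.5-fold or more, and it also passed 2-fold. Among the 375 genes whose counts summed to at least 20, 30.9% differed 1.5-fold or more and 11.7% differed 2-fold or more in either direction. Lower in replicate 1 by those folds were 15.5% and 5.87%, so 1 of 6 genes is no result about the group. By size, however, Mir99b ranked 8 of 375, 6 of 266 at a summed count of 100 or more and 4 of 156 at 1000 or more. Of the 72 genes whose counts summed to at least 10000 only Mir195a differed further (6066 counts in replicate 1 and 34495 in replicate 2, log2 ratio -2.47).

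The other members differed less, and in both directions. Mir99a (0.42, interval 0.41 to 0.43) and Mir100 (0.42, 0.39 to 0.44) were 1.34-fold and 1.33-fold higher in replicate 1, and Mir125b-2 was 1.48-fold higher there (0.57, 0.45 to 0.69). Scaled by total counts, the ratio of Mir125b-2 was 0.63, which is past 1.5-fold. Mir125a (-0.37, -0.39 to -0.35) and Mir125b-1 (-0.22, -0.32 to -0.13) were lower in replicate 1. The median difference of the 6 genes was 1.34-fold, against 1.29-fold over the 375 genes. Each of the 6 had more than 1000 counts in all, and over the 156 genes with at least 1000 the median was 1.24-fold.

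The let-7 genes of the clusters stayed close between the hearts. The log2 ratio was -0.05 (-0.07 to -0.04) for Mirlet7e, 0.01 (-0.08 to 0.11) for Mirlet7c-1 and 0.12 (-0.01 to 0.26) for Mirlet7a-2. Mir99b thus differed 3.56-fold between the hearts, and Mirlet7e, separated from it by 94 nt, 1.04-fold.

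Summed markers of other cell types also differed between the libraries, least for the white blood cell genes. The endothelial genes Mir126a and Mir126b (1 of 2 detected) summed to 86322 CPM in replicate 1 and 137860 in replicate 2, and the smooth muscle genes Mir143 and Mir145a (2 of 2) to 53735 and 35952 CPM. The erythroid genes Mir144, Mir451a and Mir486 (3 of 3) summed to 549.7 and 1048 CPM, white blood cell genes (4 of 4) to 2295 and 2447 CPM, epithelial genes (7 of 7) to 801 and 427 CPM, and the liver gene Mir122 stood at 76.3 and 141 CPM. Members of a list did not always differ alike. Mir143 stood at 51605 and 33943 CPM but Mir145a at 2130 and 2009 CPM. Mir144 (38.3 and 228 CPM) and Mir451a (230 and 521 CPM) were higher in replicate 2, while Mir486 was near equal (281 and 298 CPM). Mir200b (22.3 and 41.2 CPM) was higher in replicate 2, unlike the other epithelial genes. None of these lists had a member at 0 in both hearts. Their part in the differences of the Mir99, Mir100 and Mir125 genes was not tested, and with 1 library per heart the heart and its library cannot be told apart.

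**Figure D5:**
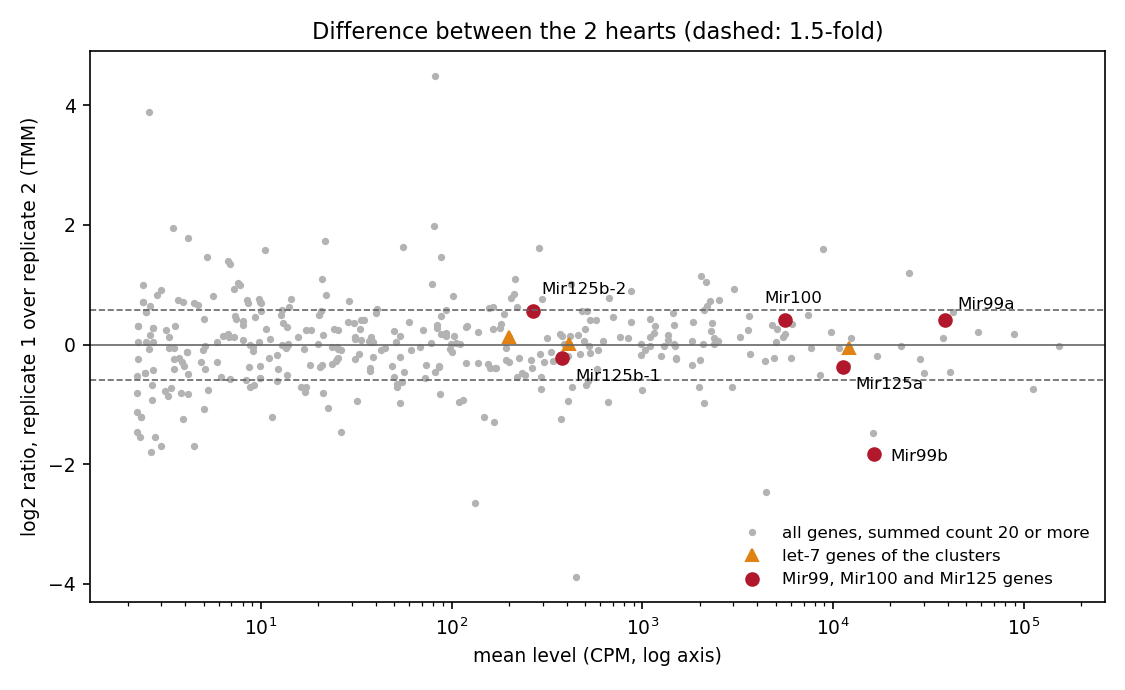
Log2 ratio of replicate 1 over replicate 2 (TMM-scaled) against mean level in CPM (log axis) for the 375 genes with at least 20 counts in all (grey), the 6 Mir99, Mir100 and Mir125 genes (circles) and the let-7 genes of their clusters (triangles), with dashed lines at 1.5-fold. Mir99b at -1.83 lies outside the lines, and the other 5 genes lie between them.

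The miR-10 genes of the Hox clusters are related to the miR-99/100 family in sequence but carry another seed, ACCCUGU, and are shown for that comparison:
miR-10a-5p: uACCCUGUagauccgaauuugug
miR-10b-5p: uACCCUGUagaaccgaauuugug
Mir10a had 5479 and 4203 counts, or 1102 ± 261 CPM, and Mir10b 3546 and 2634 counts, or 704 ± 182 CPM. Both were lower than Mir100 in each heart. Their log2 ratios of replicate 1 over replicate 2 were 0.42 (0.36 to 0.48) and 0.47 (0.39 to 0.54). Those of the miR-99/100 family were 0.42 for Mir99a and for Mir100 but -1.83 for Mir99b. Mir351 stood at 0.35 (0.33 to 0.38), beside -0.37 for Mir125a, -0.22 for Mir125b-1 and 0.57 for Mir125b-2, which share its seed.

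The genes most like each member in level over the 2 libraries were found by distance of log2(CPM + 1), which with 2 values per gene describes level more than pattern. Nearest to Mir99a were Mir143 (distance 0.21) and Mirlet7b (0.22), and nearest to Mir100 were Mir93 (0.17) and Mir351 (0.19). Mir125a had Mir30a (0.10) and Mir652 (0.24). Mir99b had 1 close gene, Mir22 (0.27), at 8861 CPM in replicate 1 and 23624 in replicate 2 with a log2 ratio of -1.48, while its next gene, Mir30a, was 1.10 away. Mir125b-1 lay nearest to Mir339 (0.13) and Mir30c-2 (0.17), and Mir125b-2 to Mir467e (0.24) and Mir669o (0.39).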

How the data were processed

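MicroRNA-seq libraries of 2 hearts were analysed, 1 per heart. The authors deposited raw read counts per miRNA gene, on mm10 with annotation M21, per the description deposited with them. Which aligner and counter were run is not given in the sources used here. The column taken as the gene strand, from where nearly all reads fell, was used. Unmapped, multimapping and outside-feature reads, which sit in category rows, took 16.9%, 38.9% and 4.71% of the reads in replicate 1 and 12.2%, 38.0% and 4.89% in replicate 2, and were left out of library sizes. Reads placed at more than 1 position were thus not counted for any gene, which lowers genes with copies.

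All 2202 gene IDs were matched by ID to M21, from which names, coordinates, overlapping genes and hairpin sequences came. Mature sequences came from RefSeq (GRCm38.p6, the assembly named mm10). CPM and percent shares were computed over the named-gene total. Library ratios were scaled by TMM (edgeR 4.0.16 in R 4.3.3) with 0.5 added as prior count, and called at 1.5-fold and 2-fold where a gene's counts summed to at least 20. No p-value was computed, since there is 1 group of 2 hearts. SDs over 2 hearts are imprecise. Intervals are exact (Clopper-Pearson, or the same for the share of 1 count in the sum of 2). The ratio and interval code was tested on simulated data. Alternatives were the unstranded column, other denominators, DESeq2 1.42.0 size factors, total counts, other minimums and prior counts, hairpin length, and each replicate left out. Scripts ran on Python 3.11.15 with pandas 2.3.3, scipy 1.17.1, matplotlib 3.10.9 and numpy 2.4.6.

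The members, gene pairs and lists were chosen with earlier results of these data known. The named genes were the 6 members, the let-7 genes of their clusters, genes with a member's seed, Mir10a and Mir10b, the 2 genes nearest to each member by distance, the most abundant gene, overlapping genes and the marker lists. Mir195a was named after its values were seen.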

Additional observations from a re-analysis of the deposited data

Results flagged for a closer look

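Reads placed at more than 1 position lie outside the gene counts and were looked at because they exceed the fixed floor of 3 counts. They numbered 4193785 in replicate 1 and 3872896 in replicate 2. How many of them belong to the 5′ arm shared by Mir125b-1 and Mir125b-2 was not tested.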

How the results depend on the processing

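Of 207 values under alternatives, 54 leave out a replicate, which with 2 hearts cannot move a mean by 1 SD and says nothing of stability. Of the other 153, 101 were kept and 52 moved, and no difference past 1.5-fold changed sign. Kept means within 1 SD for levels, shares and pair ratios, within the counting interval for ratios between hearts and within 1.5 times for counts of genes. No paired analysis was possible because all libraries form 1 group.

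Shares moved with the denominator. Without regard to strand, where reads on overlapping genes turn ambiguous, they were 10.3% for the 6 genes, 8.62% and 1.70% for the miR-99/100 and miR-125 families, and 0.847% and 5.49% for the cluster members of chromosomes 9 and 16. Over all reads they were 3.07%, 2.56%, 0.506%, 0.250%, 1.62% and, on chromosome 17, 1.19%. Without Mir378a they were 8.55%, 7.14% and 1.41% for the 6 genes and the families. The values in use were 7.25%, 6.05% and 1.19% for the 6 genes and the families, and 0.599%, 3.88% and 2.76% for chromosomes 9, 16 and 17. Leaving out each replicate gave 1.75% to 3.77% for the chromosome 17 members (1.75% without replicate 2), a move past 1.5 times, against 0.508% to 0.690% for chromosome 9, 3.23% to 4.53% for chromosome 16 and 6.98% to 7.52% for the 6 genes.

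With total counts as the scale, 2 members were 1.5-fold or more apart, since Mir125b-2 then passed. Genes 1.5-fold or more apart numbered 67 of 266 at a summed count of 100 or more, 419 of 768 at 1 or more and 39 of 156 at 1000 or more. Those 2-fold or more apart numbered 25, 286 and 15. Detected genes numbered 602 at 1 or more counts and 225 at 100 or more, with all 6 members among them. The log2 ratio of Mir99b between the hearts lay between -1.87 and -1.77 under the alternatives. DESeq2 factors over all genes were 1 in both libraries, since 48 of 602 genes with equal counts held the median. Factors over genes with at least 20 counts in all and the minimum of 1000 were added after seeing the data. Each of the 6 genes had 954 counts or more per library. How far uncounted multimapping reads lower Mir125b-1 and Mir125b-2 was not tested.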
